A study of Mus musculus with 43 samples.

Results

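The tumour necrosis factor (TNF) superfamily is a set of signalling ligands and their receptors, described here in RNA from the inferior lung lobe of 43 mice. Members were the genes whose mouse symbol begins with Tnfsf or Tnfrsf, plus Tnf, Lta, Ltb, Ltbr, Fas, Fasl, Cd40, Cd40lg, Cd27, Cd70, Ngfr, Eda2r and Edar. The rule found 45 of the 21938 genes in the count table: 18 ligands, 5 death receptors, 14 receptors that signal through TRAF adaptors, and 8 decoy, neurotrophin or ectodysplasin receptors. The mice formed 3 groups: bleomycin mice given nintedanib (labelled BLEO-IPF Nintedanib, n = 17), bleomycin mice given its vehicle (BLEO-IPF Nintedanib Vehicle, n = 16) and control mice given vehicle (CTRL Vehicle, n = 10). They are called nintedanib, vehicle and control lungs below. Bleomycin is a DNA-breaking antibiotic used to induce lung fibrosis in rodents, and nintedanib is a tyrosine kinase inhibitor given to patients with pulmonary fibrosis. The labels give no strain, genotype, sex, age, dose, route or day, and do not say what vehicle the controls received, so the effects of a different vehicle and of bleomycin cannot be told apart wherever control lungs are compared. Each library was taken as 1 mouse, which the labels do not state, and the p-values reflect only the variation among these libraries.

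Ligands of the family are made mostly as membrane proteins that can be shed, and each binds 1 or more receptors on neighbouring cells. Death receptors carry a cytoplasmic death domain and can start caspase activation. Receptors of the TRAF role bind TRAF adaptors and switch on NF-kB, which drives inflammatory and survival genes. A receptor can fit more than 1 role, and each was counted under 1 only. The role counts are therefore not a strict split by death domain or by TRAF binding. Decoy receptors bind ligand without a full signal. In lung, the family is known for macrophage and lymphocyte activation, for B cell survival, for organising lymphoid tissue and for the death of injured epithelial cells.

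Promoter windows, 250 bases before to 50 after an annotated start, were taken from RefSeq (GRCm38.p6) for 35 of the 45 members. The 4 windows printed are those of Tnfrsf9, Tnfsf14, Tnfrsf11a and Eda2r, genes on which the comparisons turn. Capitals mark the AP-1 motif TGANTCA or the kB consensus on either strand. RefSeq gives 2 windows for Tnfrsf9, at starts inside the annotated gene. The one printed was picked because it holds both motifs, with 2 overlapping kB matches, and the other holds none of the motifs searched. The Tnfsf14 window holds an AP-1 match, and the windows of Tnfrsf11a and Eda2r hold neither motif nor the p53 half-site consensus.
Tnfrsf9 (chr4:150927749-150928048, plus strand): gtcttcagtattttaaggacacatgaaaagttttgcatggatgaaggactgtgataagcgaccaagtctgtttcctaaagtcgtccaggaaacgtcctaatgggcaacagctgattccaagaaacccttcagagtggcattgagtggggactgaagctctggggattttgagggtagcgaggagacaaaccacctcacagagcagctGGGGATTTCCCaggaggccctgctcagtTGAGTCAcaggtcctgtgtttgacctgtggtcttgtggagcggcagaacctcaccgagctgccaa
Tnfsf14 (chr17:57194132-57194431, minus strand): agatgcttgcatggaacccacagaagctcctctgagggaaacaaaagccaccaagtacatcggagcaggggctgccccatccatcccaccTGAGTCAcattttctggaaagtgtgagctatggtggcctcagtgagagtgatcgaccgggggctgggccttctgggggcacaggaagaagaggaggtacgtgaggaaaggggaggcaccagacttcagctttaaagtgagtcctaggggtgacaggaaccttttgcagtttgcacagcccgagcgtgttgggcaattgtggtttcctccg
Tnfrsf11a (chr1:105780473-105780772, plus strand): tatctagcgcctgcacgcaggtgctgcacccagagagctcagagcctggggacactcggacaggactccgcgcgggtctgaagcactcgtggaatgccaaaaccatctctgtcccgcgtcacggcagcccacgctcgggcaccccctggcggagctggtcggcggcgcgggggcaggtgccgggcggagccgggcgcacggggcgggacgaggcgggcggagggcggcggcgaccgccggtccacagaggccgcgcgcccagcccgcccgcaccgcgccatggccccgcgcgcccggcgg
Eda2r (chrX:97377160-97377459, minus strand): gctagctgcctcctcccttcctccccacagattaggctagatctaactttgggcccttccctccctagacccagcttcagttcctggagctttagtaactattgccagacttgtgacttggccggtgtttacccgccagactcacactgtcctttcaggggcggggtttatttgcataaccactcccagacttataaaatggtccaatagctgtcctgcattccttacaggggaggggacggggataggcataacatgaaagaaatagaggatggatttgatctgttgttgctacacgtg
Over all 32851 windows, 7.81% held the AP-1 motif, 8.46% the kB consensus and 8.36% the p53 half-site consensus. Among the members with a window, 6 held AP-1 (Fas, Tnfrsf8, Tnfrsf9, Tnfsf13, Tnfsf13b and Tnfsf14), 4 held kB (Ltb, Tnfrsf25, Tnfrsf8 and Tnfrsf9) and 4 held the p53 half-site (Fasl, Tnfrsf25, Tnfsf13b and Tnfsfm13). Counted by window, as the background is, 7 of the 39 member windows held AP-1, 4 kB and 5 the p53 half-site. A match describes these letters only, and no match says nothing of a factor's binding elsewhere.

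Depth was 13138281 to 19111457 counts per library. The surfactant gene Sftpc, which marks alveolar epithelium, had a median of 23100 CPM (read counts scaled to library size) in nintedanib lungs, 20100 in vehicle lungs and 17300 in control lungs. By the test given below, 2 of 8 alveolar epithelial markers were higher and 1 lower in vehicle than in control lungs. In nintedanib against control lungs 6 were higher and 1 lower. Some libraries stood apart by fat and heart muscle genes. Adipoq, an adipocyte hormone gene, reached 1 CPM or more in 5 nintedanib, 0 vehicle and 8 control libraries. Summed adipocyte markers ranged over 15.4 to 726 CPM in nintedanib lungs, 10.6 to 50 CPM in vehicle lungs and 15.0 to 1421 CPM in control lungs, and cardiac muscle markers over 20.4 to 1685, 12.9 to 477 and 252 to 1420 CPM. Results are therefore also given without the libraries with Adipoq, which leaves 12 nintedanib, 16 vehicle and 2 control lungs. This filter used Adipoq alone and did not remove the difference in cardiac muscle genes. Every control lung, also the 2 kept, had at least 252 CPM of summed cardiac muscle markers, against a median of 51.6 CPM in vehicle lungs. In bulk lung, fewer cells of a type and less RNA per cell cannot be told apart.

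Per kilobase of exon, the highest median level in every group belonged to Tnfrsf1a, the main TNF receptor of most cells, at 60.6 CPM per kb in nintedanib lungs, 67.0 in vehicle lungs and 56.7 in control lungs. In nintedanib lungs Ltbr (44.4 CPM per kb), Tnfrsf1b (34) and Tnfrsf12a (27.8) came next. The order in vehicle lungs was the same, with Ltbr at 44.4, Tnfrsf1b at 41.7 and Tnfrsf12a at 29 CPM per kb. In control lungs the next places were taken by Tnfsf10 (38.1 CPM per kb), Ltbr (35.9), Ltb (23.2) and Fas (23.1), while Tnfrsf1b (15.0) ranked 6 and Tnfrsf12a (13.9) ranked 7. Tnf itself was low, at a median of 0.722 CPM per kb in nintedanib lungs, 1.08 in vehicle lungs and 0.74 in control lungs. Cd70 and Tnfsf4 had the lowest levels per kilobase, and with Tnfrsf17 they were the 3 members that did not pass the low-count filter. Cd70, a costimulatory ligand, had 6 counts over the nintedanib libraries, 18 over the vehicle libraries and 2 over the control libraries. Tnfsf4, the ligand of Tnfrsf4, had 36, 44 and 20 counts in the same order, and Tnfrsf17, the plasma cell receptor for Tnfsf13, had 108, 90 and 49.

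Of the 42 tested members, 1 was higher and 2 were lower in nintedanib than in vehicle lungs (edgeR's quasi-likelihood test, adjusted p under 0.05 over all 14836 tested genes), against a background of 7.31% of all tested genes called (3.21% higher, 4.10% lower). In vehicle against control lungs, 19 members were higher and 10 lower, against a background of 57.9% called (29.5% higher, 28.3% lower). In nintedanib against control lungs, 13 were higher and 9 lower, against a background of 53.2% called (28.1% higher, 25.1% lower). As shares, 7.14%, 69.0% and 52.4% of the tested members were called in the 3 comparisons, in that order. The median log2 fold change of the tested members was -0.14 for nintedanib over vehicle, 0.18 for vehicle over control and 0.08 for nintedanib over control, beside -0.002, -0.006 and -0.005 for all tested genes. The share of members called between the bleomycin groups was thus close to that of all genes.

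**Figure D1:**
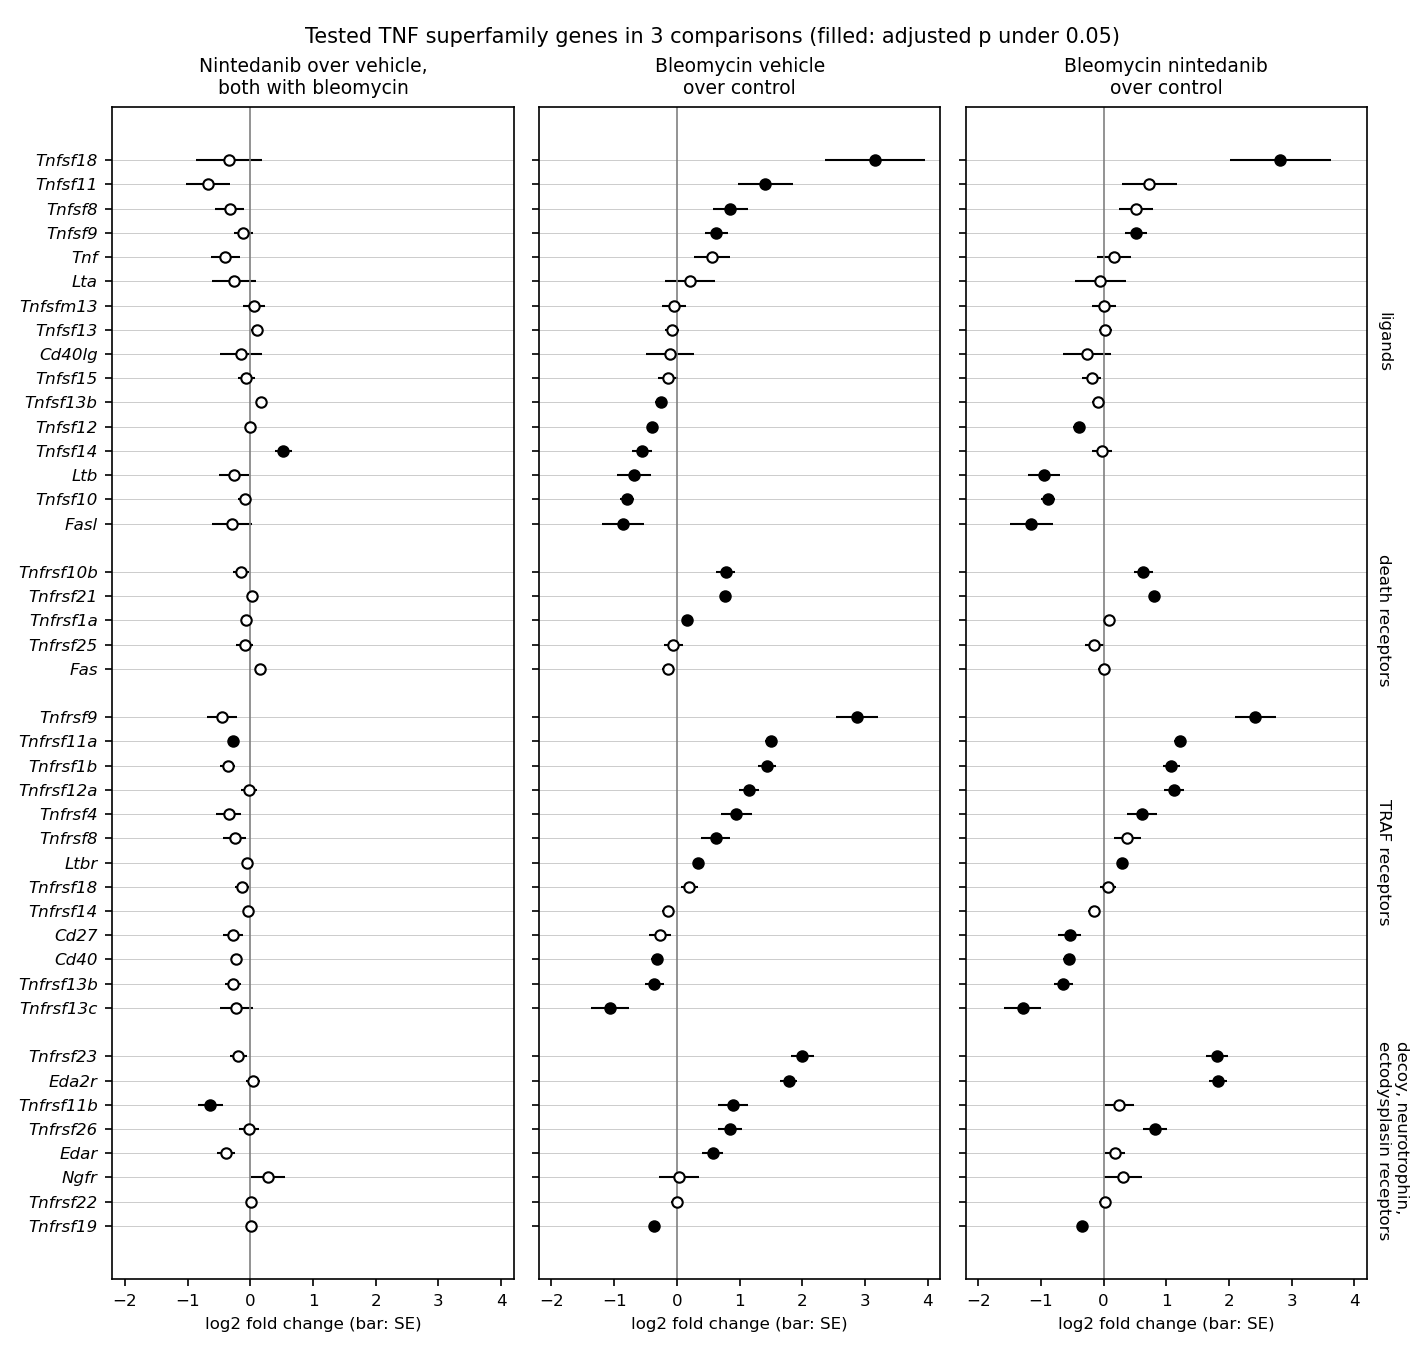
Log2 fold change and SE (horizontal axis) of the 42 tested members (rows, ordered by role and by vehicle over control) in nintedanib over vehicle, vehicle over control and nintedanib over control lungs; filled points have an adjusted p under 0.05. Receptors such as Tnfrsf9, Tnfrsf23, Eda2r and Tnfrsf11a lie right of 0 in both comparisons with control lungs, and the left panel holds 3 filled points.

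The receptors that signal through TRAFs held the largest fitted change of vehicle over control lungs among the receptors: 7 of 13 tested were higher and 3 lower. Tnfrsf9, a costimulatory receptor of activated T cells, had a lowest, median and highest level of 3.07, 7.30 and 11.3 CPM in nintedanib lungs, 2.33, 9.36 and 25.5 CPM in vehicle lungs and 0.174, 1.35 and 2.21 CPM in control lungs. Every bleomycin lung was above every control lung, and the spread was widest in vehicle lungs. On the log2 scale the change was 2.87 ± 0.33 (SE) for vehicle over control, or 7.32-fold (adjusted p = 1.7e-09), and 2.42 ± 0.33 for nintedanib over control (adjusted p = 6.2e-08). Tnfrsf11a, known as RANK, the receptor that drives osteoclast formation and dendritic cell survival, had 10.3, 14.1 and 19.1 CPM in nintedanib lungs, 10.4, 17.3 and 22.3 CPM in vehicle lungs and 5.22, 6.07 and 7.24 CPM in control lungs (lowest, median and highest). Its groups again did not overlap between bleomycin and control lungs, with a log2 fold change of 1.5 ± 0.10 for vehicle over control (adjusted p = 3.5e-15) and 1.22 ± 0.10 for nintedanib over control (adjusted p = 6.2e-13).

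Tnfrsf1b, the TNF receptor of immune and endothelial cells, had 67.5, 130 and 170 CPM in nintedanib lungs, 79.3, 159 and 218 CPM in vehicle lungs and 46.8, 57.3 and 72.0 CPM in control lungs (lowest, median and highest). All vehicle lungs were above the control range, and 16 of 17 nintedanib lungs were. The log2 fold change was 1.44 ± 0.14 for vehicle over control (adjusted p = 5.3e-11) and 1.08 ± 0.14 for nintedanib over control (adjusted p = 2.8e-08). Tnfrsf12a, the receptor of the ligand Tnfsf12 and a gene of injured epithelium and fibroblasts, had 40.4, 53.6 and 80.3 CPM in nintedanib lungs, 26.1, 56.1 and 94.7 CPM in vehicle lungs and 19.4, 26.8 and 32.1 CPM in control lungs. All nintedanib lungs and 15 of 16 vehicle lungs exceeded the highest control lung. Its log2 fold change was 1.15 ± 0.16 for vehicle over control (adjusted p = 8.9e-08) and 1.13 ± 0.16 for nintedanib over control (adjusted p = 1.3e-07). Smaller rises of vehicle over control lungs were found for Tnfrsf4 (log2 fold change 0.95 ± 0.24, adjusted p = 0.00079) and Tnfrsf8 (0.62 ± 0.23, adjusted p = 0.017), both T cell costimulatory receptors, and for Ltbr (0.34 ± 0.06, adjusted p = 3.8e-06), which organises lymphoid tissue. The groups overlapped for these 3 genes, and Tnfrsf8 had at most 37 counts in a nintedanib library, 36 in a vehicle library and 18 in a control library.

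Over the tested members, 5 had vehicle lungs wholly apart from control lungs (Tnfrsf1b, Tnfrsf11a, Eda2r, Tnfrsf23 and Tnfrsf9), all of them higher, against a background of 5.54% of all tested genes (3.70% higher, 1.84% lower). Between nintedanib and control lungs 7 members did not overlap: Tnfrsf21, Tnfrsf12a, Tnfrsf11a, Tnfrsf23, Eda2r and Tnfrsf9, which were higher, and Tnfsf10, which was lower, against a background of 7.37% (4.31% higher, 3.07% lower). No member and no tested gene (0%) had ranges apart between nintedanib and vehicle lungs.

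**Figure D2:**
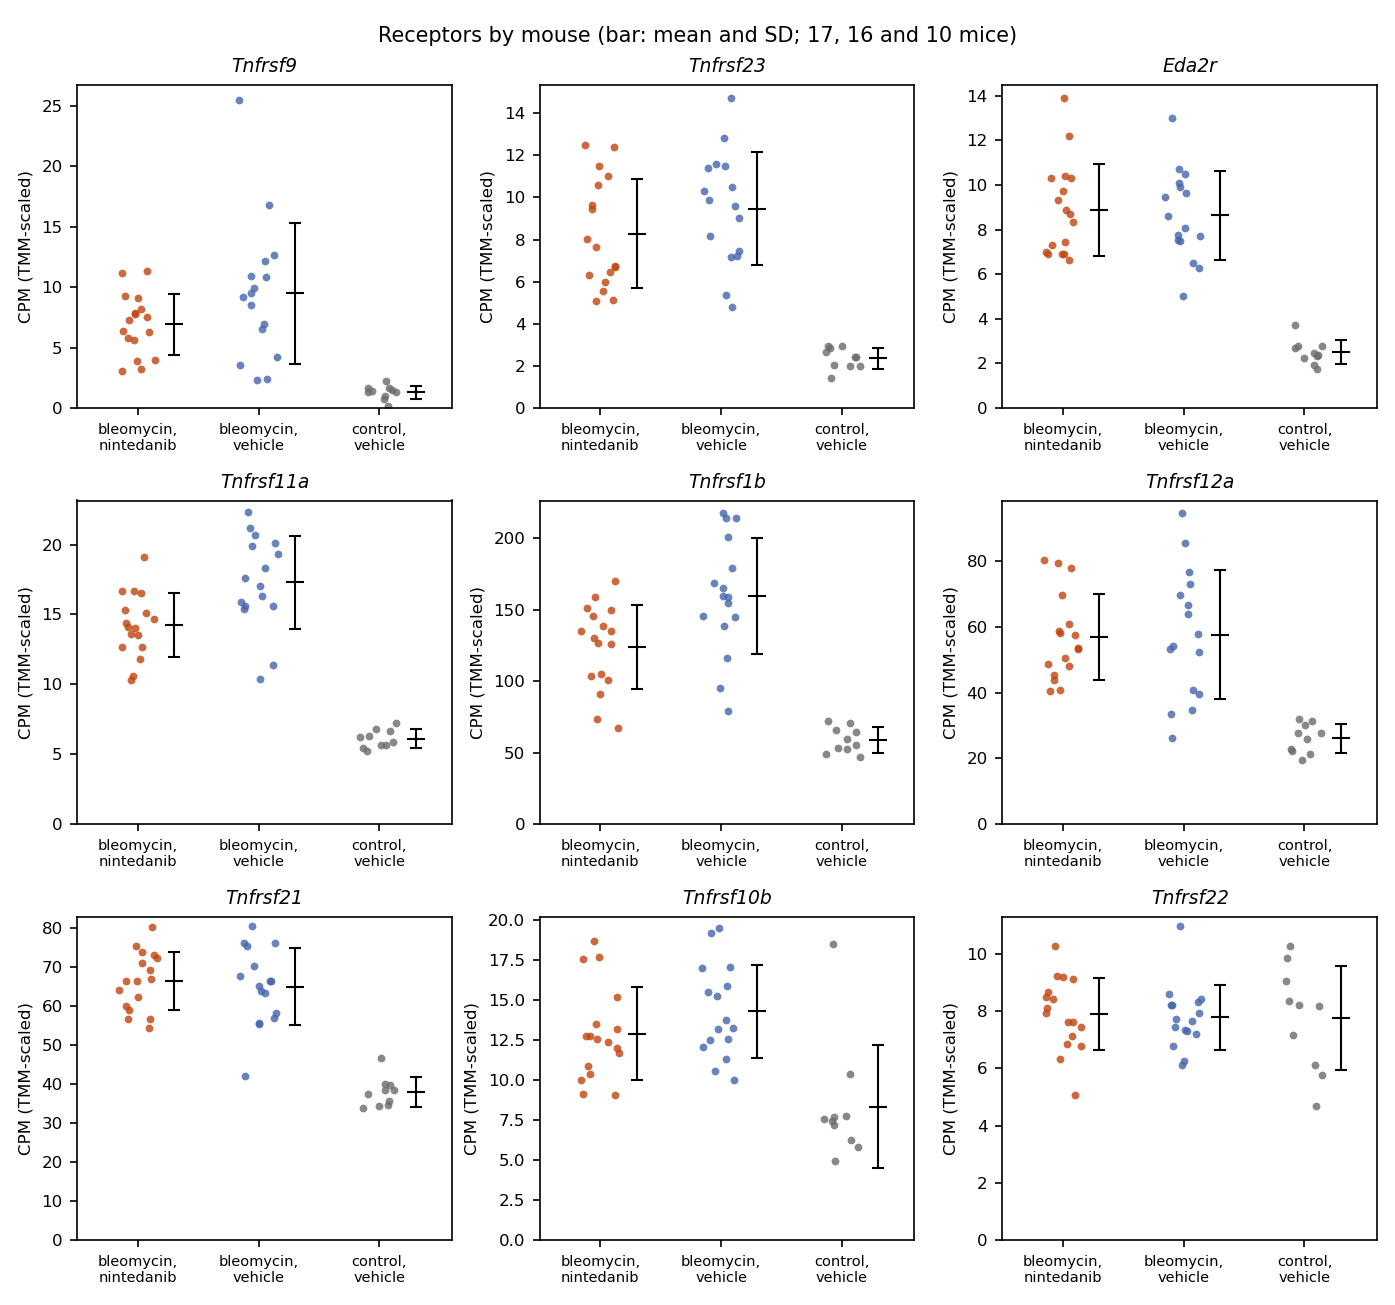
CPM (vertical axis, from 0) of 9 receptors in each mouse of the nintedanib, vehicle and control groups; points are mice, and bars are the mean and SD. For Tnfrsf9, Tnfrsf23, Eda2r and Tnfrsf11a no bleomycin lung falls within the control range, whereas Tnfrsf22 overlaps in all 3 groups.

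Of the 8 decoy, neurotrophin and ectodysplasin receptors, 5 were higher and 1 lower in vehicle than in control lungs. Tnfrsf23 and Tnfrsf22 are mouse decoy receptors for Tnfsf10, and with Tnfrsf26 they form a cluster of related genes on chromosome 7. Tnfrsf23 had 5.07, 7.66 and 12.5 CPM in nintedanib lungs, 4.81, 9.72 and 14.7 CPM in vehicle lungs and 1.42, 2.41 and 2.96 CPM in control lungs, with no overlap between bleomycin and control lungs. Its log2 fold change was 2 ± 0.18 for vehicle over control (adjusted p = 3.7e-12), and that of Tnfrsf26 was 0.84 ± 0.19 (adjusted p = 0.0002). Tnfrsf22 had medians of 7.94, 7.70 and 8.21 CPM in nintedanib, vehicle and control lungs and a log2 fold change of 0.00 ± 0.10 for vehicle over control (adjusted p = 0.98). How reads shared by these relatives were counted is not given in the sources used here, and an antisense gene overlaps exons of Tnfrsf23 and Tnfrsf26, so their values are uncertain.

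Eda2r, the receptor of an ectodysplasin isoform, had 6.63, 8.70 and 13.9 CPM in nintedanib lungs, 5.02, 8.33 and 13 CPM in vehicle lungs and 1.76, 2.41 and 3.71 CPM in control lungs. Every bleomycin lung was above every control lung, and the bleomycin groups covered nearly the same range. The log2 fold change was 1.78 ± 0.14 for vehicle over control (adjusted p = 1.1e-13) and 1.82 ± 0.14 for nintedanib over control (adjusted p = 5.6e-14). Edar, the receptor of the other isoform, was higher by 0.57 ± 0.17 in vehicle than in control lungs (log2, adjusted p = 0.0032), with overlapping groups. Tnfrsf19, an orphan receptor of epithelium and progenitor cells, was the lower one of this role, with medians of 47.3 CPM in nintedanib lungs, 45.4 CPM in vehicle lungs and 60.4 CPM in control lungs (log2 fold change -0.36 ± 0.09 for vehicle over control, adjusted p = 0.00044).

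Of the 5 death receptors, 3 were higher and none lower in vehicle than in control lungs. Tnfrsf21 had 54.2, 66.3 and 80.2 CPM in nintedanib lungs, 42.1, 65.7 and 80.5 CPM in vehicle lungs and 33.9, 37.9 and 46.7 CPM in control lungs (lowest, median and highest). Its log2 fold change was 0.77 ± 0.08 for vehicle over control (adjusted p = 2.5e-11), with 1 vehicle lung inside the control range. Tnfrsf10b, the only mouse death receptor for Tnfsf10, had 9.08, 12.6 and 18.7 CPM in nintedanib lungs, 9.99, 13.5 and 19.5 CPM in vehicle lungs and 4.92, 7.50 and 18.5 CPM in control lungs. A control lung at 18.5 CPM lay near the top of the bleomycin range, and the log2 fold change was 0.78 ± 0.15 for vehicle over control (adjusted p = 3e-05). Tnfrsf1a differed by 0.16 ± 0.07 (log2, adjusted p = 0.048), a call that none of the 8 alternative settings kept (adjusted p 0.057 to 0.98). Fas, the receptor of Fasl, had a log2 fold change of -0.14 ± 0.09 for vehicle over control (adjusted p = 0.17).

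Ligands went both ways, with 4 of 16 tested higher and 6 lower in vehicle than in control lungs. Tnfsf18, the ligand of the T cell receptor Tnfrsf18, had the largest fitted log2 fold change of the tested members, 3.16 ± 0.80 for vehicle over control (adjusted p = 0.00086). Its medians were 0.471 CPM in nintedanib lungs, 0.517 CPM in vehicle lungs and 0.139 CPM in control lungs, and its highest lungs reached 4.67, 8.80 and 0.297 CPM in that order. A single vehicle library held 138 of the 338 Tnfsf18 counts of its group, so the fitted value exceeds what the medians show. That same vehicle lung had the highest level of its group for Tnfrsf9, Tnfrsf11a, Tnfrsf11b, Tnfrsf4, Tnfsf8, Tnf, Tnfrsf10b and Eda2r. Other vehicle lungs were the highest for Tnfrsf1b, Tnfrsf12a and Tnfrsf23, among others. Tnfsf11, the ligand of Tnfrsf11a, had medians of 0.450 CPM in nintedanib lungs, 0.572 CPM in vehicle lungs and 0.273 CPM in control lungs, with overlapping groups and a log2 fold change of 1.41 ± 0.44 for vehicle over control (adjusted p = 0.0056). Tnfsf8, the ligand of Tnfrsf8, and Tnfsf9, the ligand of Tnfrsf9, were also higher in vehicle lungs, by 0.85 ± 0.28 (adjusted p = 0.0082) and 0.63 ± 0.18 (adjusted p = 0.0034) on the log2 scale. Tnf had medians of 1.18 CPM in nintedanib lungs, 1.78 CPM in vehicle lungs and 1.21 CPM in control lungs and did not pass the test (0.56 ± 0.28 for vehicle over control, adjusted p = 0.076), although it passed in the 33 libraries of 1 number series of library names (adjusted p = 0.016).

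The most abundant ligand, Tnfsf10 (TRAIL, which binds Tnfrsf10b), was lower in bleomycin lungs. It had 79.7, 108 and 154 CPM in nintedanib lungs, 82.5, 109 and 222 CPM in vehicle lungs and 177, 201 and 243 CPM in control lungs (lowest, median and highest). All nintedanib lungs and 15 of 16 vehicle lungs were below the lowest control lung. Tnfsf10 had a log2 fold change of -0.79 ± 0.11 for vehicle over control (adjusted p = 1.1e-07) and -0.88 ± 0.11 for nintedanib over control (adjusted p = 1.1e-08). Tnfsf12, the ligand of Tnfrsf12a, was lower by 0.39 on the log2 scale in both comparisons (SE 0.09, adjusted p = 0.00044 in each), although its exons overlap those of the read-through gene Tnfsfm13 by 731 bases on the same strand. Fasl, the death ligand of cytotoxic lymphocytes, had medians of 0.414 CPM in nintedanib lungs, 0.491 CPM in vehicle lungs and 0.970 CPM in control lungs (-0.86 ± 0.34 for vehicle over control, adjusted p = 0.028). Tnfsf13b, the B cell survival factor BAFF, was lower by 0.26 on the log2 scale in vehicle than in control lungs (SE 0.09, adjusted p = 0.019).

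Genes of B cells were lower in bleomycin lungs as well. Tnfrsf13c, the BAFF receptor of mature B cells, had 0.694, 4.08 and 12.1 CPM in nintedanib lungs, 2.21, 3.69 and 17.5 CPM in vehicle lungs and 6.11, 10.7 and 13.7 CPM in control lungs. Of the vehicle lungs 12 of 16 were below the lowest control lung, while 1 was above the highest. The log2 fold change was -1.07 ± 0.30 for vehicle over control (adjusted p = 0.002) and -1.29 ± 0.29 for nintedanib over control (adjusted p = 0.00027). Ltb, a membrane ligand of Ltbr made by lymphocytes, had medians of 16.9 CPM in nintedanib lungs, 17.3 CPM in vehicle lungs and 35.1 CPM in control lungs (-0.69 ± 0.27 for vehicle over control, adjusted p = 0.025). Tnfrsf13b, another receptor of the BAFF family, and Cd40, the B cell and dendritic cell receptor for T cell help, were lower in vehicle than in control lungs by 0.36 (SE 0.15, adjusted p = 0.034) and 0.32 (SE 0.09, adjusted p = 0.0019) on the log2 scale. Of 10 B cell markers, 9 were lower in vehicle than in control lungs and none higher, with summed levels of 57.4 to 370 CPM in nintedanib lungs, 102 to 436 CPM in vehicle lungs and 265 to 490 CPM in control lungs. Plasma cell markers went both ways, with 1 of 6 higher and 3 lower in vehicle than in control lungs. Their summed medians were 134 CPM in nintedanib lungs, 113 CPM in vehicle lungs and 67.8 CPM in control lungs. Of 12 T and NK cell markers 6 were lower, with summed medians of 63.4, 63.4 and 113 CPM in nintedanib, vehicle and control lungs, and none was higher. The part of these cell markers in the members' values was not tested.

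**Figure D3:**
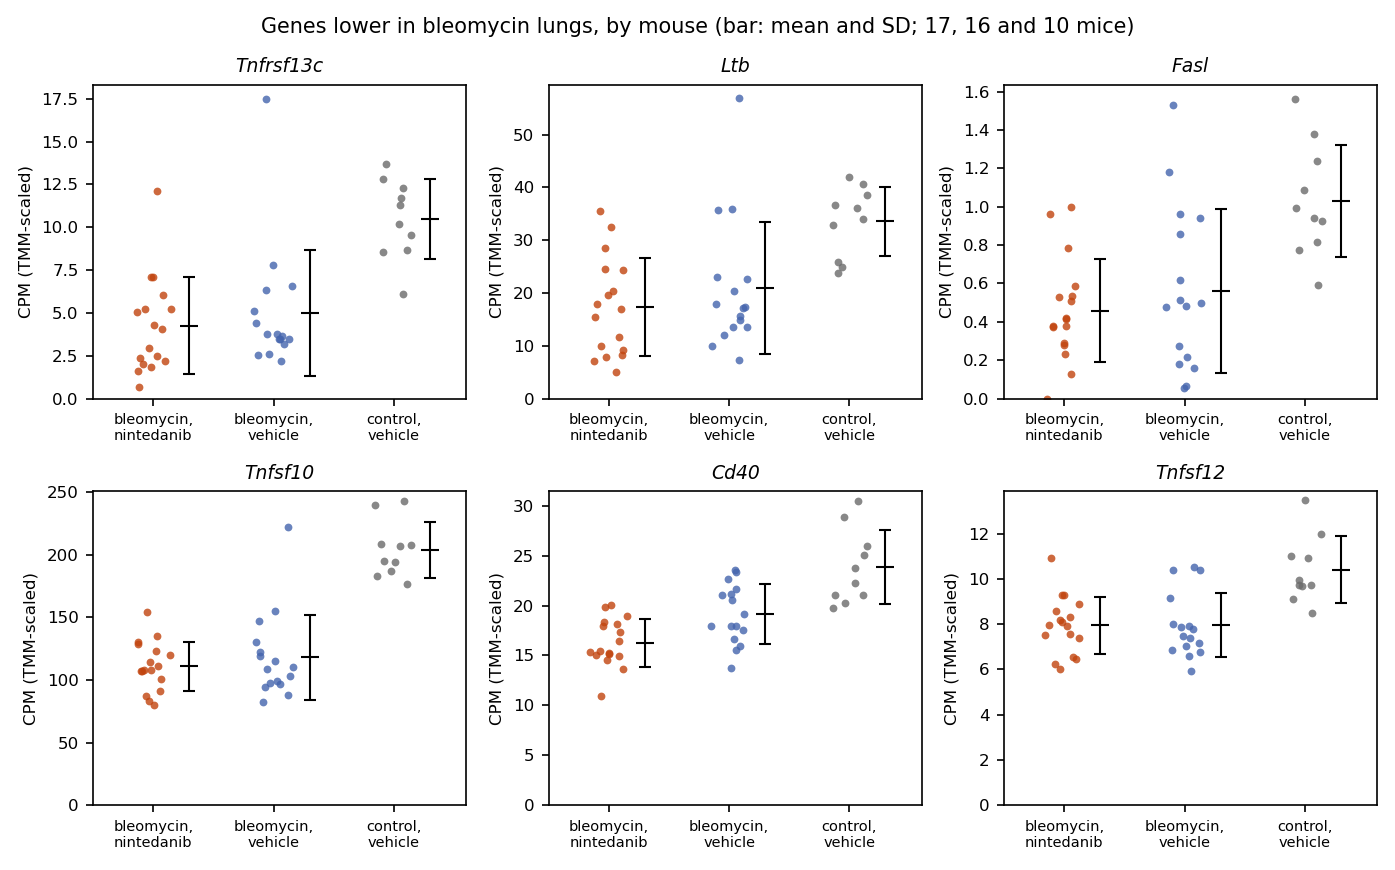
CPM (vertical axis, from 0) in each mouse of 6 members called lower in vehicle than in control lungs, for the nintedanib, vehicle and control groups; points are mice, and bars are the mean and SD. All nintedanib lungs lie below the lowest control lung for Tnfsf10, and nintedanib and control lungs overlap for the other 5 genes.

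Other cell markers moved with the comparison too. All 8 macrophage markers were higher in vehicle than in control lungs, with summed medians of 2346 CPM in nintedanib lungs, 3034 CPM in vehicle lungs and 296 CPM in control lungs. Of 5 markers of regulatory and activated T cells, 2 were higher and 0 lower, among them Foxp3 (log2 fold change 1.25 ± 0.35, adjusted p = 0.0026). The summed level of these 5 was not higher, with medians of 11.7 CPM in nintedanib lungs, 12.3 CPM in vehicle lungs and 12.6 CPM in control lungs. The part of the macrophage and T cell markers in the changes of Tnfrsf1b, Tnfrsf11a, Tnfrsf9 and Tnfrsf4 was not tested. Of 8 endothelial markers 7 were lower in vehicle than in control lungs and none higher, with summed levels of 2189 to 3526 CPM in nintedanib lungs, 1584 to 4174 CPM in vehicle lungs and 4229 to 5677 CPM in control lungs. All 8 airway markers were lower, with summed levels of 8406 to 20441 CPM in nintedanib lungs, 4997 to 18840 CPM in vehicle lungs and 16193 to 29504 CPM in control lungs. The part of both lists in the lower levels of Tnfsf10, Tnfsf12 and Tnfrsf19 was not tested. Without the libraries with Adipoq, 9 members were higher in vehicle than in control lungs (Tnfrsf11a, Eda2r, Tnfrsf21, Tnfrsf23, Tnfrsf1b, Tnfrsf10b, Tnfrsf9, Tnfrsf12a and Edar) and 3 lower (Tnfsf10, Tnfsf12 and Cd40), with 2 control lungs left. In that subset Tnfsf18 (adjusted p = 0.085), Tnfsf11 (0.17), Tnfsf8 (0.23), Tnfsf9 (0.06), Tnfrsf4 (0.1), Tnfrsf8 (0.29), Ltbr (0.086), Tnfrsf26 (0.14), Tnfrsf11b (0.33), Tnfrsf13c (0.14), Ltb (0.5), Fasl (0.3), Tnfsf14 (0.077), Tnfrsf13b (0.36), Tnfrsf19 (0.069) and Tnfsf13b (0.13) no longer passed. All of these kept their sign, and the fitted log2 fold changes of Tnfsf18 (5.12 ± 2.19), Tnfsf11 (1.78 ± 0.94), Tnfsf8 (1.03 ± 0.62), Tnfsf9 (0.92 ± 0.36) and Tnfrsf4 (1.15 ± 0.51) were larger than over all libraries, with larger SEs. Within the 33 libraries of the largest number series of library names (called A), whose meaning the labels do not give, Ltb (adjusted p = 0.21), Fasl (0.093), Tnfrsf13b (0.23) and Tnfsf13b (0.09) did not pass either, while Tnf (0.81 ± 0.28, adjusted p = 0.016) and Tnfrsf18 (0.33 ± 0.14, adjusted p = 0.039) passed as higher and Fas (-0.25 ± 0.07, adjusted p = 0.0053) as lower in vehicle than in control lungs.

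Between the bleomycin groups, Tnfsf14 was the member higher in nintedanib than in vehicle lungs. Tnfsf14, known as LIGHT, is a ligand of Ltbr and Tnfrsf14 made by activated T cells and myeloid cells. It had 1.96, 2.80 and 5.73 CPM in nintedanib lungs, 1.19, 2.20 and 3.44 CPM in vehicle lungs and 2.09, 3.11 and 5 CPM in control lungs (lowest, median and highest). Of the nintedanib lungs 14 of 17 were above the vehicle median and 4 above the highest vehicle lung, so the groups overlapped. The log2 fold change was 0.53 ± 0.14 for nintedanib over vehicle (adjusted p = 0.017), -0.56 ± 0.16 for vehicle over control (adjusted p = 0.0029) and -0.03 ± 0.16 for nintedanib over control (adjusted p = 0.9). Its receptors Ltbr and Tnfrsf14 had log2 fold changes of -0.05 ± 0.05 and -0.03 ± 0.08 for nintedanib over vehicle and did not pass the test. Of 6 neutrophil markers 3 were higher in nintedanib than in vehicle lungs, with summed levels of 60.4 to 661 CPM (median 99.9) in nintedanib lungs and 23.8 to 118 CPM (median 60.5) in vehicle lungs, and their part in the Tnfsf14 difference was not tested. The Tnfsf14 call held without the libraries with Adipoq (0.58 ± 0.16, adjusted p = 0.045) and was lost within number series A (0.43 ± 0.16, adjusted p = 0.096).

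Both members lower in nintedanib than in vehicle lungs belong to the RANK axis. Tnfrsf11a, with the levels given above, was lower by 0.28 on the log2 scale (SE 0.08, adjusted p = 0.031), and 16 of 17 nintedanib lungs were below the vehicle median. Tnfrsf11b, osteoprotegerin, a secreted decoy for Tnfsf11 and Tnfsf10, had 2.64, 4.23 and 7.86 CPM in nintedanib lungs, 2.47, 7.13 and 18.9 CPM in vehicle lungs and 2.61, 4.14 and 5.35 CPM in control lungs. Of the nintedanib lungs 13 of 17 were below the vehicle median, and the nintedanib range lay within the vehicle range. The log2 fold change was -0.64 ± 0.20 for nintedanib over vehicle (adjusted p = 0.038), 0.89 ± 0.24 for vehicle over control (adjusted p = 0.0013) and 0.25 ± 0.23 for nintedanib over control (adjusted p = 0.36). The ligand Tnfsf11 had a log2 fold change of -0.68 ± 0.35 for nintedanib over vehicle and did not pass the test (adjusted p = 0.22). Without the libraries with Adipoq neither Tnfrsf11a (-0.23 ± 0.09, adjusted p = 0.15) nor Tnfrsf11b (-0.61 ± 0.24, adjusted p = 0.13) passed. Tnfrsf11b was also lost within number series A (-0.72 ± 0.24, adjusted p = 0.055), and a fit to the bleomycin groups alone lost both (adjusted p = 0.056 for Tnfrsf11a and 0.072 for Tnfrsf11b).

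**Figure D4:**
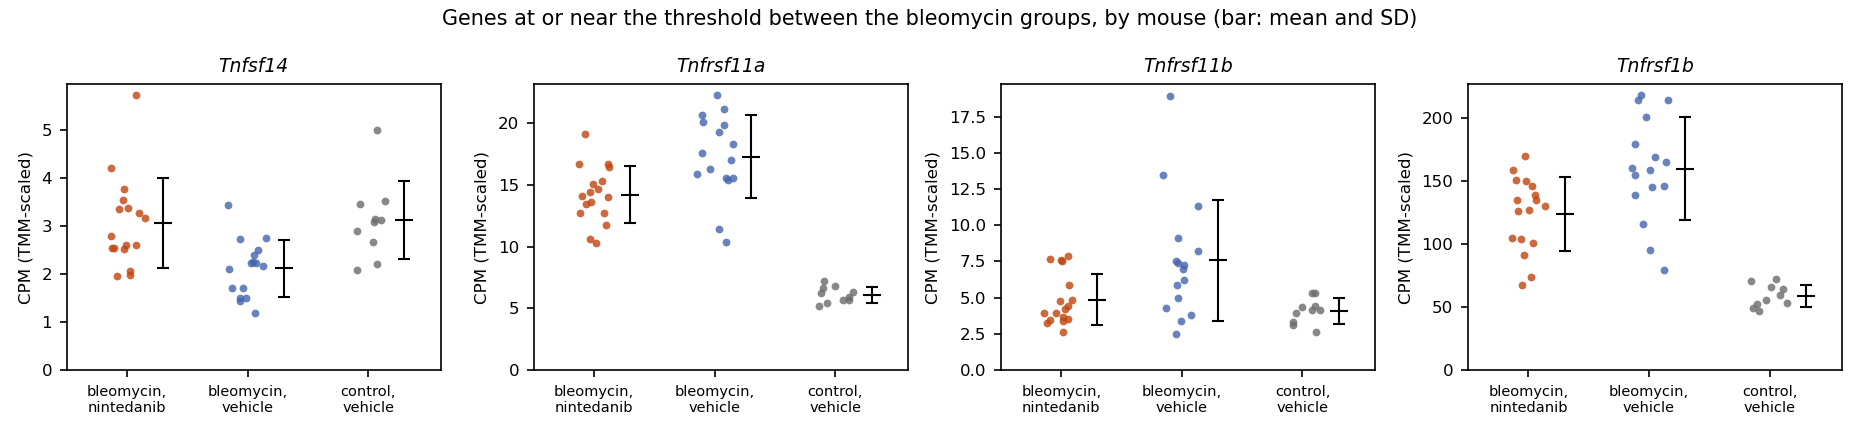
CPM (vertical axis, from 0) in each mouse of the 3 members called between nintedanib and vehicle lungs and of Tnfrsf1b, which did not pass, for the nintedanib, vehicle and control groups; points are mice, and bars are the mean and SD. The nintedanib and vehicle lungs overlap for all 4 genes.

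The other TRAF receptors had the same sign without passing the test. All 13 tested had a negative log2 fold change for nintedanib over vehicle, between -0.45 and -0.02 with a median of -0.25, and 1 of them, Tnfrsf11a, was called. All 13 were negative with RLE factors and with library totals too, and 12 of 13 were within number series A or with the series as a covariate. Without the libraries with Adipoq, 12 of 14 tested were negative and 0 were called. These genes were measured in the same lungs, so their signs are not independent. The shared sign also rests on which receptors were given this role. Of the 8 decoy, neurotrophin or ectodysplasin receptors, 4 had positive and 4 negative values over all libraries. Ngfr was at 0.28 ± 0.27, Eda2r at 0.04 ± 0.11 and Tnfrsf19 at 0.02 ± 0.08. The TRAF receptors nearest to the threshold over all libraries were Tnfrsf1b (-0.36 ± 0.12, adjusted p = 0.050019) and Cd40 (-0.23 ± 0.08, adjusted p = 0.052). Both passed with library totals (adjusted p = 0.029 for Tnfrsf1b and 0.046 for Cd40) and with DESeq2 (0.033 and 0.037). Within number series A, Cd27 (-0.56 ± 0.18, adjusted p = 0.049) and Tnfrsf13b (-0.58 ± 0.14, adjusted p = 0.012) passed as lower in nintedanib than in vehicle lungs. Among the 5 death receptors the values ran from -0.15 to 0.15 and none was called, although Fas passed as higher within number series A (0.23 ± 0.07, adjusted p = 0.033), and over all tested members 32 of 42 were negative. Of 8 dendritic cell markers 4 were lower in nintedanib than in vehicle lungs (Fscn1, Flt3, Ccr7 and Batf3), with summed medians of 113 CPM in nintedanib lungs and 150 CPM in vehicle lungs. Summed macrophage markers had medians of 2346 CPM in nintedanib lungs and 3034 CPM in vehicle lungs, and none of the 8 was called. The part of these markers in the receptor values was not tested. Some receptors called between vehicle and control lungs had values near 0 here, with Eda2r at 0.04 ± 0.11, Tnfrsf12a at -0.02 ± 0.13 and Tnfrsf21 at 0.03 ± 0.06 (log2, nintedanib over vehicle, adjusted p = 0.86, 0.94 and 0.81).

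The comparison of nintedanib with control lungs shares its control libraries with that of vehicle lungs. It called 2 of 16 tested ligands higher (Tnfsf18 and Tnfsf9) and 4 lower (Tnfsf10, Tnfsf12, Ltb and Fasl), 6 of 13 TRAF receptors higher and 4 lower, 2 of 5 death receptors higher (Tnfrsf21 and Tnfrsf10b), and 3 of 8 decoy, neurotrophin or ectodysplasin receptors higher (Tnfrsf23, Eda2r and Tnfrsf26) and 1 lower (Tnfrsf19). Cd27, a costimulatory receptor of T and B cells, was called in this comparison and not in the other two: it had medians of 3.91 CPM in nintedanib lungs, 4.70 CPM in vehicle lungs and 6.22 CPM in control lungs, with a log2 fold change of -0.54 ± 0.18 for nintedanib over control (adjusted p = 0.01). For vehicle over control it was -0.27 ± 0.18 (adjusted p = 0.2), and for nintedanib over vehicle -0.27 ± 0.16 (adjusted p = 0.29), where it passed within number series A alone. Ltb was lower by 0.95 (SE 0.26, adjusted p = 0.0023), Fasl by 1.15 (SE 0.34, adjusted p = 0.0042), Tnfrsf13b by 0.64 (SE 0.15, adjusted p = 0.00028) and Cd40 by 0.55 (SE 0.09, adjusted p = 9.1e-07) on the log2 scale in nintedanib than in control lungs. Without the libraries with Adipoq, 8 members were higher in nintedanib than in control lungs and 4 lower, these being Tnfsf10, Tnfsf12, Cd40 and Tnfrsf13c.

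Across mice within a group, some members followed a marker of a cell type or process. The 5 pairs gave 15 relations on log2 CPM, with permutation p-values adjusted over them, where 1e-05 is the smallest unadjusted p the permutations can give. Tnfrsf13c followed the B cell gene Cd79a with Pearson's r of 0.94 in nintedanib lungs, 0.88 in vehicle lungs and 0.90 in control lungs (Spearman's rho 0.93, 0.81 and 0.94; adjusted permutation p = 7.5e-05, 0.00015 and 0.00052). Without the 2 mice farthest from the median of Cd79a, r was 0.90, 0.70 and 0.90 in the same groups. Ltb followed Cd79a with r of 0.89, 0.73 and 0.78 (rho 0.89, 0.61 and 0.87, adjusted permutation p of r = 7.5e-05, 0.003 and 0.013). In vehicle lungs r was 0.38 without the 2 mice farthest from the median of Cd79a and did not pass (adjusted permutation p = 0.22). Tnfrsf11b followed the collagen gene Col1a1 in nintedanib lungs (r = 0.87, rho 0.80) and in vehicle lungs (r = 0.83, rho 0.75), with an adjusted permutation p = 0.00015 in each, and r was 0.80 and 0.71 without the 2 mice farthest in Col1a1. The vehicle lung highest in Col1a1 was also the highest in Tnfrsf11b and in Tnfsf18. In control lungs r of Tnfrsf11b with Col1a1 was -0.02 (adjusted permutation p = 0.95), where Col1a1 spanned only 156 to 241 CPM.

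**Figure D5:**
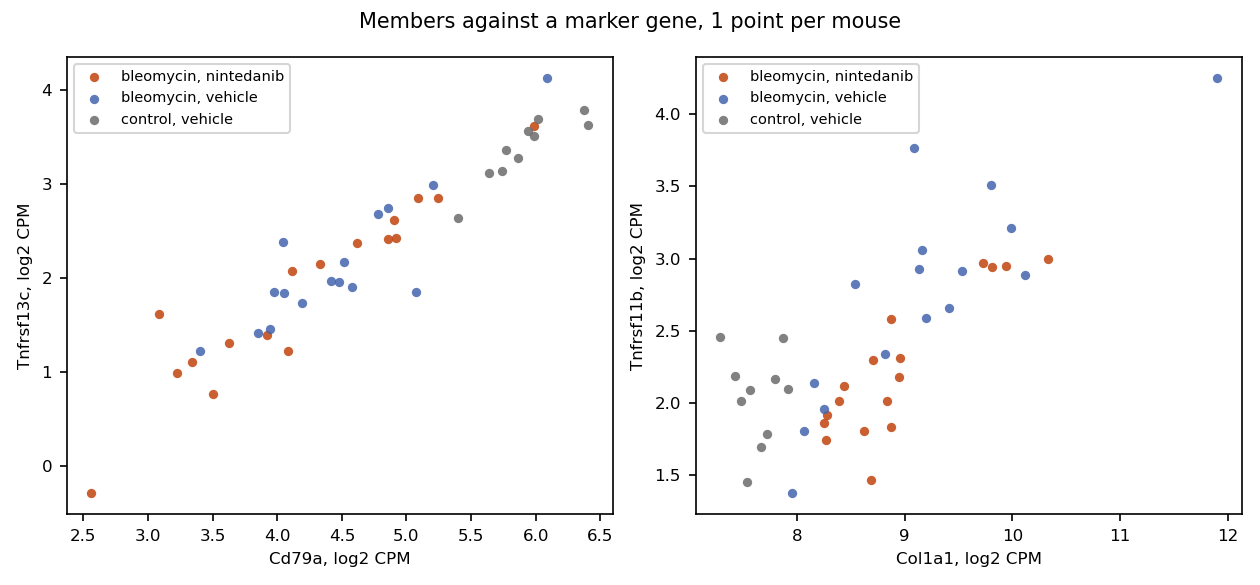
Log2 CPM of Tnfrsf13c against Cd79a (left) and of Tnfrsf11b against Col1a1 (right), 1 point per mouse, coloured by nintedanib, vehicle and control group. Tnfrsf13c follows Cd79a in each group, and Tnfrsf11b follows Col1a1 in both bleomycin groups while control lungs cluster at low Col1a1.

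Tnfrsf4 and the T cell gene Cd3e had r of 0.64 in nintedanib lungs, 0.61 in vehicle lungs and -0.07 in control lungs (rho 0.68, 0.49 and 0.02; adjusted permutation p of r = 0.0098, 0.015 and 0.92). In vehicle lungs rho did not pass (adjusted permutation p = 0.074). In nintedanib lungs r was 0.47 without the 2 mice farthest from the median of Cd3e and did not pass (adjusted permutation p = 0.12). Tnfrsf12a and the p53 target Cdkn1a had r of 0.40, 0.70 and 0.35 in nintedanib, vehicle and control lungs (rho 0.35, 0.70 and 0.33; adjusted permutation p = 0.14, 0.0045 and 0.36), with r of 0.59 in vehicle lungs without the 2 mice farthest in Cdkn1a. Within number series A, r over the 11 vehicle lungs was 0.54 for this pair (adjusted permutation p = 0.12), and for Tnfrsf13c with Cd79a it was 0.91, 0.87 and 0.91 in nintedanib, vehicle and control lungs. For Tnfrsf11b with Col1a1 within that series r was 0.86 in nintedanib lungs and 0.83 in vehicle lungs. The points within a group share depth, tissue sampling and cell make-up.

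The genes around the family gave the following counts. The background for these lists, as for the cell markers, was 57.9% of all tested genes called in vehicle against control lungs (29.5% higher, 28.3% lower). In nintedanib against vehicle lungs it was 7.31% (3.21% higher, 4.10% lower). Of 20 adaptor and death signalling genes, 7 were higher and 3 lower in vehicle than in control lungs, led by the adaptor Traf4 (log2 fold change 0.70 ± 0.08) and the necroptosis effector Mlkl (0.57 ± 0.12), with Traf5 (-0.34 ± 0.07) and the caspase inhibitor Cflar (-0.32 ± 0.05) the lowest. In nintedanib against vehicle lungs none was higher and 4 were lower, among them the deubiquitinase Otulin (-0.23 ± 0.05) and Traf4 (-0.21 ± 0.07). Of 19 genes of the NF-kB core, 7 were higher and 6 lower in vehicle than in control lungs, with Bcl3 (1.01 ± 0.14) and Nfkbie (0.91 ± 0.14) the highest and Nfkbia (-0.31 ± 0.10) and Nfkbiz (-0.24 ± 0.08) the lowest. In nintedanib against vehicle lungs 3 of the 19 were lower and none higher, with Nfkbie at -0.43 ± 0.12 and Relb, of the alternative pathway, at -0.30 ± 0.07.

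Of 20 known TNF response genes, 9 were higher and 1 lower in vehicle than in control lungs, with the chemokines Ccl20 (log2 fold change 1.96 ± 0.71) and Ccl2 (1.82 ± 0.35) the highest and the adhesion gene Sele (-0.60 ± 0.24) lower. Ccl20 had medians of 0.538 CPM in nintedanib lungs, 0.326 CPM in vehicle lungs and 0.146 CPM in control lungs. Its highest vehicle lung reached 9.15 CPM, and its fitted value exceeds what the medians show. None of the 20 was called between nintedanib and vehicle lungs. Of 12 p53 targets outside the family, 11 were higher in vehicle than in control lungs, with Ckap2 (2.7 ± 0.32) and Gdf15 (2.51 ± 0.19) the highest, and none was called between nintedanib and vehicle lungs. Of 8 tested osteoclast genes downstream of RANK, 5 were higher in vehicle than in control lungs, with the protease Ctsk (3.03 ± 0.24) and the proton pump subunit Atp6v0d2 (2.54 ± 0.22) the highest, and Mmp9 (-1.22 ± 0.30) was lower. Macrophages also express these genes. In nintedanib against vehicle lungs Mmp9, which neutrophils also carry, was the one called, at 0.99 ± 0.27.

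Of 7 genes that depend on Ltbr in lymphoid tissue, 3 were tested, and Cxcl13 (log2 fold change 0.86 ± 0.33) and Pdpn (0.60 ± 0.10) were higher in vehicle than in control lungs. Pdpn was also in the list of 6 lymphatic endothelial markers, of which 4 were higher and 1 lower in that comparison. The part of those cells in the Pdpn value was not tested. Of 8 genes for shedding or outside the naming rule, 4 were higher and 3 lower in vehicle than in control lungs. Relt, a receptor of the family (0.79 ± 0.13), and the sheddase Adam10 (0.68 ± 0.08) were the highest. Eda, which encodes the ligand of Edar and Eda2r, had medians of 2.64 CPM in nintedanib lungs, 1.79 CPM in vehicle lungs and 4.03 CPM in control lungs, and with Edaradd, the adaptor of Edar (-0.80 ± 0.22), it was the lowest at -1.08 ± 0.17 for vehicle over control. In nintedanib against vehicle lungs Eda was higher by 0.53 ± 0.15 (adjusted p = 0.03) and Relt lower by 0.48 (SE 0.11, adjusted p = 0.0055) on the log2 scale.

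Over all libraries, the tested members called in none of the 3 comparisons were Tnf, Lta, Cd40lg, Tnfsf13, Tnfsf15, Tnfsfm13, Fas, Tnfrsf25, Tnfrsf14, Tnfrsf18, Tnfrsf22 and Ngfr. Fas was the most abundant of them, at medians of 46.1 CPM in nintedanib lungs, 39.6 CPM in vehicle lungs and 47.6 CPM in control lungs. Lta and Cd40lg, ligands of lymphocytes, had at most 38 and 22 counts in any library. Their log2 fold changes for vehicle over control, 0.21 ± 0.40 and -0.11 ± 0.38, were smaller than their SEs, so differences of this size could not be detected here. Tnfsf13 shares 983 exonic bases on the same strand with the read-through gene Tnfsfm13, so the level of either is uncertain.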

How the data were processed

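RNA from the inferior lung lobe of 43 mice was sequenced, with polyA RNA made into directional libraries and read single-end, per the labels' protocols. The authors deposited whole-number counts per gene in 1 table. The submitters' processing notes name GRCm38, R 3.6.0 and STAR 2.7.0f, per the labels. The counting tool and its strand setting were not given in the sources used here, so antisense partners cannot be told apart. Symbols, coordinates and exon lengths came from the GENCODE annotation of GRCm38.

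Groups followed the treatment label. Genes were kept with edgeR's filterByExpr (minimum count 10, minimum total 15), leaving 14836 genes with 99.96% of counts. Each comparison used edgeR's two-sided quasi-likelihood test with TMM factors and robust dispersion, 1 coefficient per group over 43 libraries, and Benjamini-Hochberg adjustment over all tested genes at 0.05. Library totals ran from 13138281 to 19111457 counts, and a gene's biological coefficient of variation had a median of 13.6%. CPM is scaled with TMM factors, and log2 CPM has a prior count of 2. No 2 libraries of a group agreed within sampling noise (301 pairs, chi-square per degree of freedom at least 5.22). The fit was tested on simulated data in which fewer genes were changed than were called in any comparison. That setting therefore differs from the comparisons with control lungs, and its outcome is not reported here. Relations used 100000 permutations, two-sided.

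The rule for named genes took every member called in a comparison with its values, named the others, and took the 2 largest changes in each direction of each pathway list. The members and lists were chosen with earlier results of these data known. Alternatives were RLE factors, library totals, no low-count filter, DESeq2 1.42.0, fits to 2 groups, the number series as a covariate, number series A alone, and leaving out libraries with Adipoq at 1 CPM or more. The tools were edgeR 4.0.16 and limma 3.58.1 in R 4.3.3, and SciPy 1.17.1, pandas 2.3.3 and NumPy 2.4.6 in Python 3.11.15.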

Additional observations from a re-analysis of the deposited data

Results flagged for a closer look

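A test for a single library far from the rest of its group was run on log2 CPM of the 42 tested members in the 10 control lungs, the one group small enough for it. It marked 4 members (9.52%), where chance marks about 1 group in 20. Tnfrsf21 was highest in control replicate 10, at 5.55 against 5.32 in the nearest lung. Tnfrsf9 was lowest in control replicate 6, at -1.75 against -0.16 in the nearest lung. Tnfrsf8 was lowest in control replicate 7, at -0.86 against -0.22, and Tnfsfm13 in control replicate 1, at -0.68 against 0.19. The 4 values came from 4 different control lungs.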

How the results depend on the processing

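No called member changed sign under those of the 8 alternatives in which it was tested. In nintedanib against vehicle lungs, 4 members were lower with library totals and with DESeq2, and 0 without the libraries with Adipoq or in fits to 2 groups, where 525 and 640 of all genes were called. Without the libraries with Adipoq, 9 members were higher and 3 lower in vehicle than in control lungs (3654 of all genes called), and 8 higher and 4 lower in nintedanib than in control lungs (3297 called), with fewer libraries in the fit. Library totals moved the split of all calls to 369 higher and 813 lower in nintedanib over vehicle, 3736 and 4882 in vehicle over control, and 3250 and 4844 in nintedanib over control. The relation of Ltb to Cd79a in vehicle lungs fell to r = 0.38 (adjusted permutation p = 0.22) and that of Tnfrsf4 to Cd3e in nintedanib lungs to 0.47 (0.12) without the 2 mice farthest from the marker's median. Tnfrsf12a with Cdkn1a in vehicle lungs had r = 0.54 (adjusted permutation p = 0.12) in number series A. Where no value shows the cause of a change, the cause was not tested. No paired analysis was possible because the labels give no replicate numbers. Members under about 1 CPM, such as Tnfsf18, Tnfsf11, Fasl, Lta and Cd40lg, have few counts and uncertain values. The parts of depth and of variation among lungs in this were not tested.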
